A study of Mus musculus with 38 samples.

Results

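The genes described here are 9 mouse genes of the cell surface and its surroundings: Cd44, Plaur, Plau, F3, Thbs1, Tll1, Bmp1, Cd59a and Has2. They were taken by gene symbol, current or older, from the probe annotation of the array, which named 18300 genes in all. They are held by 10 probes, 2 for Bmp1 and 1 for each of the others. Cd44 and several of the others were picked because they lay far below wild type in hypomorphic fibroblasts, and the rest because they act in the same systems, so the fibroblast values and their contrast with thymus are given as description without a test. That choice also used the contrast with thymus, so thymus values near the pool are partly fixed by it. Thymus values were tested over all features, and a member without a call there supports nothing further.

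The study asked how a partial loss of Dnmt3b, a methyltransferase that places new DNA methylation, alters gene expression in mouse embryos. Each 2-colour array set RNA of 1 hypomorphic embryo against RNA pooled from wild-type samples of that tissue (n = 5 per pool). The measurement is the log2 ratio, taken as hypomorph over pool, a direction that no label states. Thymus came from 5 hypomorphic embryos at 18.5 dpc (days post coitum) on 18 arrays, and mouse embryonic fibroblasts from 5 hypomorphic embryos at 12.5 dpc on 20 arrays, all of a mixed 129SvJae and C57BL/6 background. Thymus labels give the genotype m3/m24 except on 3 arrays, whereas fibroblast labels give a number, and the hypomorphic genotype of the fibroblasts is taken from the description of the design. No Cre or transgene is named, and controls and hypomorphs share the background and age within a tissue. Embryos are the replicates, and the arrays of each (4 each, 2 for thymus embryo 5) are repeats in both dye orientations that were averaged. The pool counts as 1 control sample whose own spread is not in any test. Because only ratios were used here, a level, a detection limit or the presence of tissue markers cannot be read, and the number of embryos and arrays sets the precision.

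CD44 is a transmembrane receptor for hyaluronan, the long sugar polymer that HAS2 spins out from the plasma membrane, and fibroblasts carry much of both. The urokinase receptor, encoded by Plaur, holds the protease urokinase (Plau) at the cell surface, where it turns plasminogen into plasmin. Tissue factor (F3) starts coagulation when it meets factor VII outside the vessel, thrombospondin 1 (Thbs1) is a secreted matricellular protein that binds CD47 and CD36 and can activate latent TGF-beta, and the tolloid proteases encoded by Tll1 and Bmp1 trim procollagens and cleave the BMP antagonist chordin. CD59 is a lipid-anchored surface protein that blocks assembly of the complement pore and shares its protein fold with the urokinase receptor.

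Because Dnmt3b methylates cytosine in CpG dinucleotides, the CpG content of the members' promoter windows was counted. The RefSeq promoter table (GRCm38.p6) held 5 of the 9 members, each as the 300 bases from 250 before to 50 after an annotated start. Plau, Thbs1, Bmp1 and Has2 were not matched there. The windows of Cd44 (chr2:102901616-102901915, minus strand), Plaur (chr7:24462233-24462532, plus strand), F3 (chr3:121723287-121723586, plus strand) and Cd59a (chr2:104095551-104095850, plus strand) are shown because they span the range of CpG content among members that lay below the pool in every fibroblast embryo. Sequences run 5′ to 3′ on the strand of the gene, and capitals mark CpG.
Cd44: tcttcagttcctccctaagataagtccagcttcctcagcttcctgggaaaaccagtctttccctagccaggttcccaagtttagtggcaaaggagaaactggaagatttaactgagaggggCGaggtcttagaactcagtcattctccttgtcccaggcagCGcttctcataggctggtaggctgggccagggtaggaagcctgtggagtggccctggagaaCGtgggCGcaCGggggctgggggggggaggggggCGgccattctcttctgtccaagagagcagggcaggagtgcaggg
Plaur: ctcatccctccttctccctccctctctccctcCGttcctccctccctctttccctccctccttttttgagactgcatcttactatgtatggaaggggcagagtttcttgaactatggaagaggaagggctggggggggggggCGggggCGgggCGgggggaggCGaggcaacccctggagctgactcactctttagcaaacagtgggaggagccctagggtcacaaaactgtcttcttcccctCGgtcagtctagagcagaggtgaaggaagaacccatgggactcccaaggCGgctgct
F3: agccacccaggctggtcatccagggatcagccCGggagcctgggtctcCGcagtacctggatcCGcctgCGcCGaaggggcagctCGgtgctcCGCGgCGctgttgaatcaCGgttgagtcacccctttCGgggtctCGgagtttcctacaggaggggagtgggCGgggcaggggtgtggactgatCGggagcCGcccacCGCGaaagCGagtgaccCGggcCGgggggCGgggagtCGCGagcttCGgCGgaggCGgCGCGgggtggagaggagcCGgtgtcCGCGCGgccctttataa
Cd59a: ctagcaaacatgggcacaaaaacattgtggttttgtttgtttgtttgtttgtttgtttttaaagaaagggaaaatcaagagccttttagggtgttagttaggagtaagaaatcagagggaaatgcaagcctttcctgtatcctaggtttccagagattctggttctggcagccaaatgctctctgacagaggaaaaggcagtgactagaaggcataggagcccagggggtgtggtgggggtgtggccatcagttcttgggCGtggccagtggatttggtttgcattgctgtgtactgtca
The F3 window held 32 CpG, Tll1 (chr8:64205959-64206258, minus strand, not printed) 12, Plaur 7, Cd44 6 and Cd59a 1. Over all 27025 windows in the table the median was 7, with quartiles at 3 and 21. F3 had more CpG than 90.8% of windows and Cd59a more than 5.78%, so these members came from both the CpG-rich and the CpG-poor end. The Plaur window starts from a site inside the annotated span of the gene, and so do those of Cd59a and Cd44, by fewer bases.

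Both strands of the same windows were searched for 3 letter patterns, with positions counted from 0 at the annotated start and overlapping matches counted separately. TGANTCA, the AP-1 pattern, reads the same on both strands and was counted once per position. It occurred once in Plaur, at -69, and 2 times in F3, at -146 and -135, and not in Cd44, Tll1 or Cd59a, against 7.93% of all windows with at least 1. GGGCGG, the Sp1 pattern, occurred once in Cd44, at 3, 3 times in Plaur, at -111, -105 and -100 (the last pair sharing a base), and 3 times in F3, at -89, -58 and -24, against 35.9% of all windows. GGAATG, the TEAD pattern, occurred once in Tll1, at -238, against 14.6% of all windows. These are matches of letters in the windows shown and no measure of binding or methylation, neither of which was analysed here.

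Some fibroblast arrays went against their labels, and they touch the values of that tissue. With the mean of all arrays of a dye orientation removed, 6 of 38 arrays had a mean correlation below 0 with the other arrays of their own embryo, 3 in fibroblasts and 3 in thymus. In thymus these were array 1 of embryo 1, at -0.01, and the only 2 arrays of embryo 5, which share 1 value of -0.11. Array 4 of fibroblast embryo 4 ran opposite to the other 19 fibroblast arrays for Cd44, Plaur, F3, Thbs1 and Tll1, and array 4 of fibroblast embryo 1 resembled array 3 of embryo 2 across probes (r = 0.935). Among arrays of its dye orientation, array 2 of fibroblast embryo 1 was most like array 2 of embryo 4 (r = 0.732). Eif2s3y, a translation factor gene of the Y chromosome, read -2.08, 0.28, -2.21 and -1.39 on arrays 1 to 4 of fibroblast embryo 1, and -0.36, 0.35, -0.51 and 3.16 on those of embryo 4. The repeats of each of these embryos thus did not agree on it. Fibroblast results are therefore also given without array 4 of embryo 4. Dnmt3b itself was at -0.08 ± 0.15 in thymus and 0.11 ± 0.11 in fibroblasts (SD, n = 5, limma adjusted p = 0.917 and 0.359). The position of its probe in the transcript is not known here, so it does not check the labels. Neither tissue was rich in calls: 5 of 21947 features passed in thymus and 1 of 22025 in fibroblasts (limma, adjusted p under 0.05), with 1642 (7.48%) and 3537 (16.1%) at an unadjusted p under 0.05.

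In fibroblasts, 6 of the 9 members lay below the wild-type pool in all 5 embryos: Cd44, Thbs1, Tll1, Plaur, F3 and Cd59a. None lay above it in all 5. Over all features 9.02% lay below the pool in all 5 fibroblast embryos, and 7.8% above it in all 5, shares printed for scale only since the members were chosen on this contrast. The members were not all low, with Plau and Bmp1 near the pool and Has2 above it in 4 of 5 embryos. In RNA of whole cell populations, fewer cells that express a gene and less RNA per cell cannot be told apart.

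Cd44, the hyaluronan receptor, had log2 ratios of -2.00, -2.50, -2.70, -0.90 and -1.64 in fibroblast embryos 1 to 5. All 5 were below the pool, with embryos 2 and 3 lowest and embryo 4 closest to it. The mean was -1.95 ± 0.72 (SD, n = 5), which is 25.9% of the pool or 3.86-fold lower, and only 1 of 18258 named genes had a lower fibroblast mean. On single arrays Cd44 lay between -3.06 and -1.44 on 19 of 20 and at 1.00 on array 4 of embryo 4. The other 3 arrays of embryo 4 read -1.65, -1.44 and -1.50, so the mild value of that embryo rests on 1 array, and without it the mean over embryos was -2.07.

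Has2, the enzyme that makes hyaluronan, went the other way in most embryos. Its log2 ratios were 0.26, 0.86, 1.05, -0.20 and 0.17 in fibroblast embryos 1 to 5, with a mean of 0.43 ± 0.52 (SD, n = 5). The embryos with the lowest Cd44, 2 and 3, had the highest Has2, and embryo 4, with the mildest Cd44, was the one below the pool. By mean it ranked 236 from the top of 18258 genes. Across 20 arrays Has2 ran from -0.60 to 1.28, above 0 on 15, and without array 4 of embryo 4 its mean was 0.41.

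Of the urokinase pair, the receptor lay below the pool and the protease did not. Plaur had log2 ratios of -0.79, -1.28, -1.92, -0.39 and -0.78 in embryos 1 to 5, a mean of -1.03 ± 0.59 (SD, n = 5), or 49.0% of the pool. Every embryo was below 0, with embryos 2 and 3 again lowest and embryo 4 mildest. Plau had 0.36, -0.11, -1.04, -0.15 and 0.11, below 0 in 3 embryos and above it in 2. Its mean of -0.16 ± 0.53 (SD, n = 5) is smaller than its spread, and only embryo 3, which had the lowest Plaur, lay far from the pool. The repeats of embryo 2 did not agree on Plau. Arrays 1 and 4 read -0.72 and -0.58 and arrays 2 and 3 read 0.54 and 0.32, so the value of -0.11 describes none of them.

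F3, tissue factor, had log2 ratios of -1.15, -1.13, -0.62, -1.07 and -0.95 in fibroblast embryos 1 to 5, with a mean of -0.99 ± 0.22 (SD, n = 5), or 50.5% of the pool. Embryo 3, which had the lowest Cd44, Plaur and Thbs1, had the mildest F3. Without array 4 of embryo 4, which read 1.38 against -1.92 to -0.49 on the other 19, embryo 4 was the lowest at -1.90 and the mean was -1.15 ± 0.47 (SD, n = 5). Thbs1, the matricellular activator of TGF-beta, had -1.57, -1.85, -1.86, -0.35 and -0.35, a mean of -1.20 ± 0.78 (SD, n = 5), or 43.7% of the pool. Embryos 1, 2 and 3 were the lower ones. Array 4 of embryo 4 read 1.35, and without it that embryo was at -0.86 and the Thbs1 mean was -1.30.

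The tolloid proteases also differed from each other. Tll1, tolloid-like 1, had log2 ratios of -1.06, -1.32, -1.50, -0.81 and -0.53 in embryos 1 to 5, a mean of -1.04 ± 0.39 (SD, n = 5), or 48.5% of the pool. All 5 were below 0. Bmp1, which makes the founding protease of the family, had -0.26, -0.24, -0.03, -0.10 and 0.06, a mean of -0.12 ± 0.14 (SD, n = 5), near the pool in every embryo. Its 2 probes differed, with -0.25 ± 0.28 on one and 0.02 ± 0.06 on the other (SD, n = 5). Without array 4 of embryo 4 the mean of Tll1 was -1.22 and embryo 4 was its lowest, at -1.67, since that array read 1.95 against -1.98 to -0.26 elsewhere.

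Cd59a, the complement inhibitor, had log2 ratios of -0.98, -0.85, -1.04, -0.16 and -1.58 in fibroblast embryos 1 to 5. Its mean was -0.92 ± 0.51 (SD, n = 5), or 52.7% of the pool. Here embryo 5 was lowest, whereas embryos 2 and 3 were lowest for Cd44, Plaur and Thbs1. Embryo 4 was again mildest, with array 4 at 1.44, and without that array the mean was -1.01. Within embryo 2 the arrays split as they did for Plau, with arrays 1 and 4 at -0.46 and 0.06 and arrays 2 and 3 at -1.41 and -1.59. The same arrays of embryo 2 lay apart for other members too. Arrays 1 and 4 against 2 and 3 read -1.69 and -1.53 against -0.79 and -1.11 for Plaur. For F3 they read -1.48 and -1.47 against -0.67 and -0.90, and for Tll1 -1.62 and -1.98 against -0.77 and -0.92. Thbs1 and Has2 split likewise, with arrays 1 and 4 farther from the pool. For Cd44 the 4 arrays ran from -2.67 to -2.35.

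**Figure D1:**
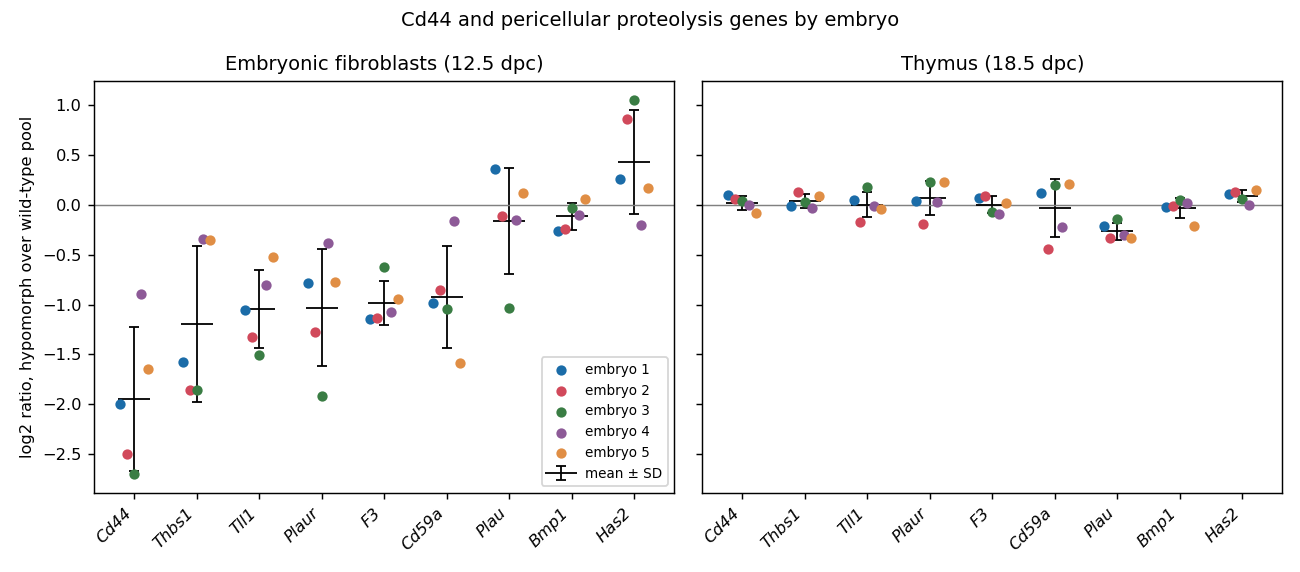
Log2 ratio of hypomorph over wild-type pool (vertical axis, 0 is the pool) for the 9 members in each of 5 embryos (coloured points) with the mean ± SD (black), in fibroblasts at left and thymus at right, ordered by the fibroblast mean. In fibroblasts 6 members lie below 0 in every embryo, with Cd44 at -2.70 to -0.90, while in thymus every mean lies between -0.27 and 0.09.

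The fibroblast arrays carry title prefixes of 3 kinds, and the size of several values moved with them. Embryos 2 and 3 and array 4 of embryo 1 have titles beginning AYX or AYY, and all other fibroblast arrays, like every thymus array, begin AYT. What the prefixes stand for is not stated, and prefix and embryo largely cannot be told apart. In the AYX and AYY set embryo 1 enters by 1 Cy3 array without dye balance, the one that resembles array 3 of embryo 2 (Cd44 at -2.48 and -2.45), so the set may hold fewer than 3 separate embryos. On AYT arrays alone (embryos 1, 4 and 5) the mean of Cd44 was -1.48, that of Plaur -0.61, that of Thbs1 -0.80 and that of Tll1 -0.82. On AYX and AYY arrays alone (embryos 1, 2 and 3) the same means were -2.56, -1.42, -1.78 and -1.23. F3 and Cd59a moved less, from -1.07 to -0.89 and from -0.87 to -1.17. Has2 was at 0.02 on AYT arrays and 0.87 on the others, and all 9 AYX or AYY arrays read 0.53 or more, so its position above the pool came mainly from those arrays. Plau changed sign, from 0.13 to -0.29. The direction of Cd44, Plaur, F3, Thbs1, Tll1 and Cd59a was below the pool in both sets of arrays.

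**Figure D2:**
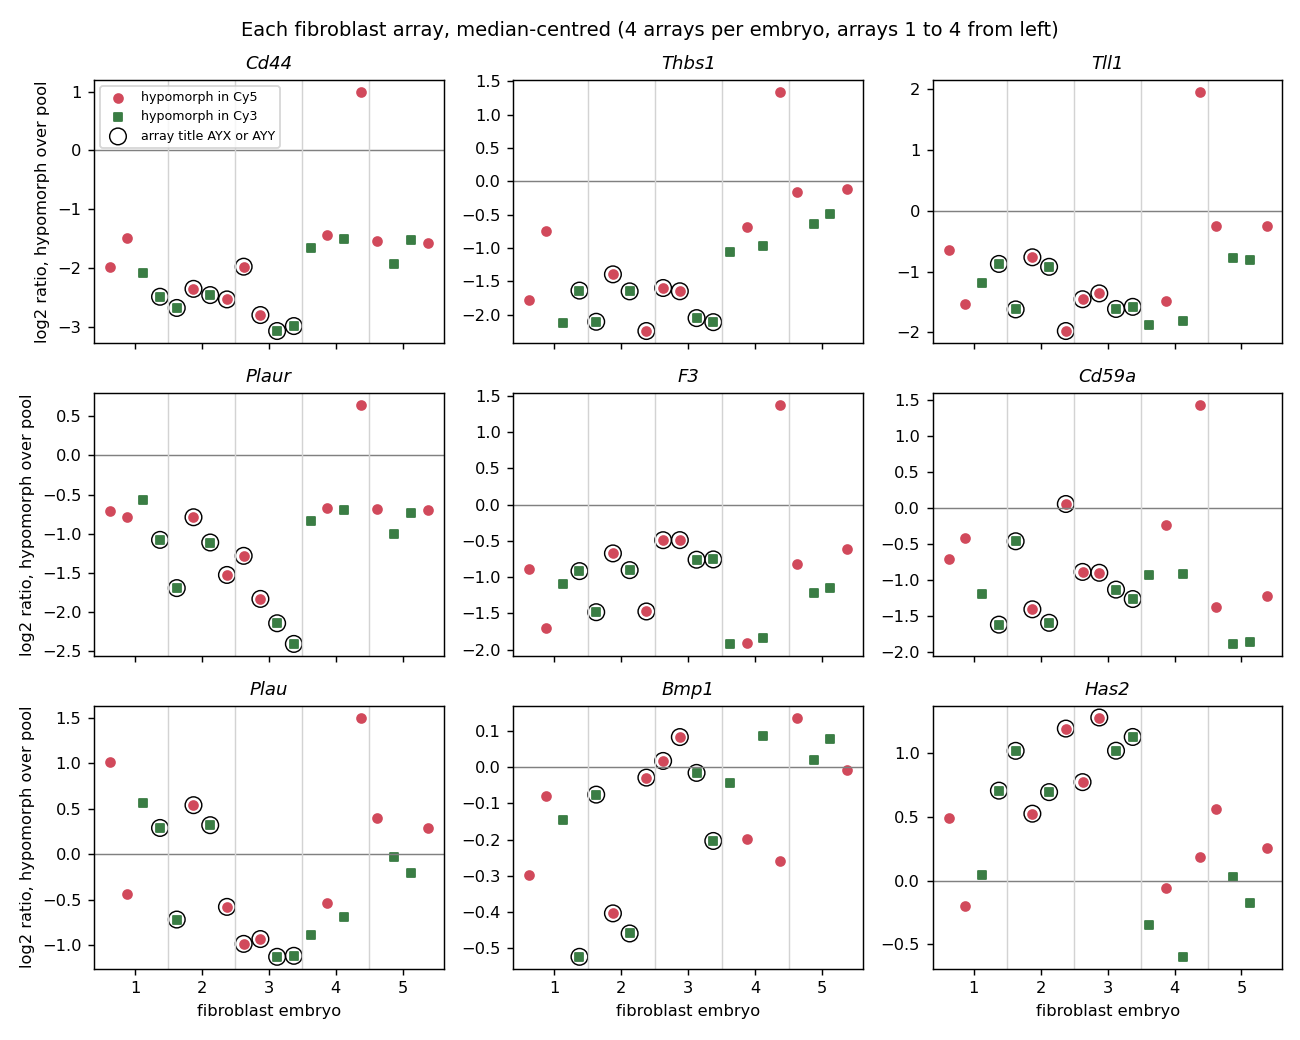
Median-centred log2 ratio of hypomorph over pool (vertical axis, own scale in each panel) on each of the 20 fibroblast arrays, 4 per embryo along the horizontal axis, with the hypomorph in Cy5 (red circles) or Cy3 (green squares) and AYX or AYY titles ringed. Array 4 of embryo 4 stands alone above 0 for Cd44 (1.00), Thbs1 (1.35), Tll1 (1.95), Plaur (0.65) and F3 (1.38), and all 9 ringed arrays read 0.53 or more for Has2.

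Both dye orientations placed the low members below the pool in fibroblasts, at different depths. With the hypomorph in Cy5 the mean over embryos was -1.66 for Cd44, -0.77 for F3, -0.90 for Thbs1 and -0.56 for Cd59a. With it in Cy3 these were -2.23, -1.20, -1.49 and -1.28. Without all 3 fibroblast arrays that correlated below 0 with their embryo (array 4 of embryo 4 and arrays 2 and 4 of embryo 1), the means were -2.07 for Cd44, -1.37 for Thbs1, -1.19 for Tll1, -1.12 for F3, -1.07 for Plaur and -1.0 for Cd59a, and those of Has2, Plau and Bmp1 were 0.42, -0.18 and -0.10. All 10 Cy3 arrays were below 0 for Cd44, Plaur, F3, Thbs1, Tll1 and Cd59a, and the Cy5 set includes array 4 of embryo 4.

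In thymus none of the 9 members passed the test (limma, adjusted p under 0.05), where 0.0228% of all features passed. The choice of members also used the contrast with thymus, so the p-values and intervals of members below are description and support nothing further. The member with the smallest p was Plau, below the pool in all 5 embryos at -0.21, -0.34, -0.15, -0.31 and -0.34. These lie close together, and the mean was -0.27 ± 0.08 (SD, n = 5), or 83.1% of the pool, with a 95% confidence interval from -0.38 to -0.15. Its unadjusted limma p was 8.19e-04 and its adjusted p 0.203, and an exact two-sided sign-flip test over embryos gave p = 0.0625, the smallest that 5 embryos allow. Over all features 4.84% lay below the pool in all 5 thymus embryos. With the hypomorph in Cy3 alone Plau was at -0.34 and passed (limma adjusted p = 0.0132), a setting in which the dye effect stays in the ratio and 5246 features passed.

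Cd44 in thymus was at 0.10, 0.06, 0.04, -0.01 and -0.09 in embryos 1 to 5, a mean of 0.02 ± 0.07 (SD, n = 5, limma adjusted p = 0.951). The embryos straddled the pool, and the 95% confidence interval of the mean ran from -0.09 to 0.13. Plaur had 0.04, -0.19, 0.23, 0.03 and 0.23, a mean of 0.07 ± 0.17 (SD, n = 5, limma adjusted p = 0.924), with an interval from -0.10 to 0.23. Has2 was above the pool in all 5 embryos by small amounts, from 0.00 to 0.15, with a mean of 0.09 ± 0.06 (SD, n = 5, limma adjusted p = 0.761, exact two-sided sign-flip p = 0.0625). The 9 thymus Cy5 arrays averaged 0.18 for Has2 and the 9 Cy3 arrays -0.02, so its position above the pool came from 1 dye orientation. Over all features 3.52% lay above the pool in all 5 thymus embryos.

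The other thymus means were within 0.04 of the pool. F3 had 0.07, 0.09, -0.07, -0.10 and 0.02 (mean 0.00 ± 0.08), Thbs1 ran from -0.03 to 0.13 (0.04 ± 0.07), Tll1 from -0.17 to 0.18 (0.00 ± 0.13) and Bmp1 from -0.21 to 0.05 (-0.03 ± 0.10, SD, n = 5 each). Their intervals were -0.11 to 0.11, -0.07 to 0.14, -0.14 to 0.14 and -0.16 to 0.09. Cd59a was the most variable member in thymus, with 0.12, -0.44, 0.20, -0.22 and 0.21, a mean of -0.03 ± 0.29 (SD, n = 5) and an interval from -0.28 to 0.22. Embryos 2 and 4 were below the pool for Cd59a and the other 3 above it. F3 and Thbs1 showed a dye effect larger than any of these means. The 9 thymus Cy5 arrays averaged -0.25 and -0.21, and the 9 Cy3 arrays 0.25 and 0.27, so the balanced value near 0 is the mean of opposite readings. The same held for Cd59a (0.18 on Cy5 and -0.29 on Cy3 arrays), and in smaller size for Tll1 (-0.18 and 0.19) and Bmp1 (-0.17 and 0.14).

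Set side by side, the tissues separated for 5 of the 9 members, given as description because the choice of members used this contrast. All 5 fibroblast embryos lay below all 5 thymus embryos for Cd44, Plaur, F3, Thbs1 and Tll1, an arrangement seen in 1.91% of 21850 features. The mean log2 ratio in thymus minus that in fibroblasts was 1.97 for Cd44, 1.24 for Thbs1, 1.10 for Plaur, 1.04 for Tll1 and 0.99 for F3. Cd59a differed by 0.90, but thymus embryos 2 (-0.44) and 4 (-0.22) lay below fibroblast embryo 4 (-0.16). Without array 4 of that embryo its Cd59a value was -0.58 and no overlap remained, so 6 of the 9 members separated, against 2.30% of 21782 features. Plau, Bmp1 and Has2 overlapped between the tissues, with differences of -0.10, 0.08 and -0.34. The tissues differ in age as well as kind, and these are ratios to separate pools, so they give no difference in level between thymus and fibroblasts.

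Genes outside the members whose 10 embryo values lay nearest to those of Cd44, by root mean square difference, were Ppp3r1 (0.618), a calcineurin subunit, Cttn (0.635), which encodes the actin-binding protein cortactin, Tmed2 (0.720), Swap70 (0.724) and Cap1 (0.758). Among members Thbs1 was nearest to Cd44, at 0.577, closer than any of these, followed by Plaur at 0.692 and Tll1 at 0.710. Ppp3r1 had a fibroblast mean of -1.37 ± 0.73 and a thymus mean of 0.16 ± 0.58, and Cap1 -1.17 ± 0.34 and -0.05 ± 0.14 (SD, n = 5). Nearest to Plaur were Ripk2 (0.195), a kinase of the Nod pathway, Hs6st2 (0.225), a heparan sulphate sulphotransferase, Pdlim5 (0.249), Cttn (0.255) and the smooth muscle actin gene Actg2 (0.256), with the member Tll1 at 0.238. The embryos in this measure share their pools and, in fibroblasts, the doubted arrays. The members were chosen on these same values, so the nearness of members to each other is partly fixed by that choice.

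In the RefSeq gene table (GRCm38.p6) 3 members lie on chromosome 2, which also carries Dnmt3b (153649411 to 153687730). Cd44 spans 102811141 to 102901669, Cd59a 104095753 to 104115410 and Thbs1 118111876 to 118127133, which places them 50.7, 49.5 and 35.5 Mb from Dnmt3b. They are also the 3 genes of chromosome 2 with a fibroblast mean of -0.9 or lower. The choice of members for low fibroblast values partly fixes this. Such genes made up 0.193% of chromosome 2, within the range of 0% to 0.224% over chromosomes 1 to 19 and X. The chromosome as a whole did not stand out, with 9.46% of its 1554 genes below the pool in all 5 fibroblast embryos, within the range of 7.21% to 11.4% over chromosomes 1 to 19 and X. F3 lies on chromosome 3, Plaur on 7, Tll1 on 8, Plau and Bmp1 on 14 and Has2 on 15.

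Genes near the members mostly stayed near the pool. Within 500 kb of a member 105 other genes were measured in fibroblasts, with a median of 0.01. Of these, 13 (12.4%) lay below the pool in all 5 embryos, against 9.02% of all features. Around Cd44 the 7 neighbours ran from -0.23 to 0.24, which includes Pdhx at 0.24 and Apip at 0.18 on one side and Fjx1 at -0.23 and Slc1a2 at 0.01 on the other. The 28 neighbours of Plaur ran from -0.39 to 0.26. Those of F3 ran from -0.46 (Abcd3) to 0.13, with Abcd3 and Cnn3 (-0.35) below the pool in every embryo. Those of Thbs1 ran from -0.47 (Gpr176) to 0.43 (Bub1b), with none below in every embryo. Cd59a has a neighbour in the same direction, the F-box gene Fbxo3, at -0.68 ± 0.34 (SD, n = 5) and below the pool in every embryo, while its other neighbours lay between -0.24 (Hipk3) and 0.03. The one neighbour measured near Tll1, the carboxypeptidase gene Cpe, was at -0.58 ± 0.34 (SD, n = 5), again below in every embryo. Near Plau, Dnajc9 was above the pool in every embryo, at 0.65 ± 0.38 (SD, n = 5). No neighbour of Has2 was measured.

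**Figure D3:**
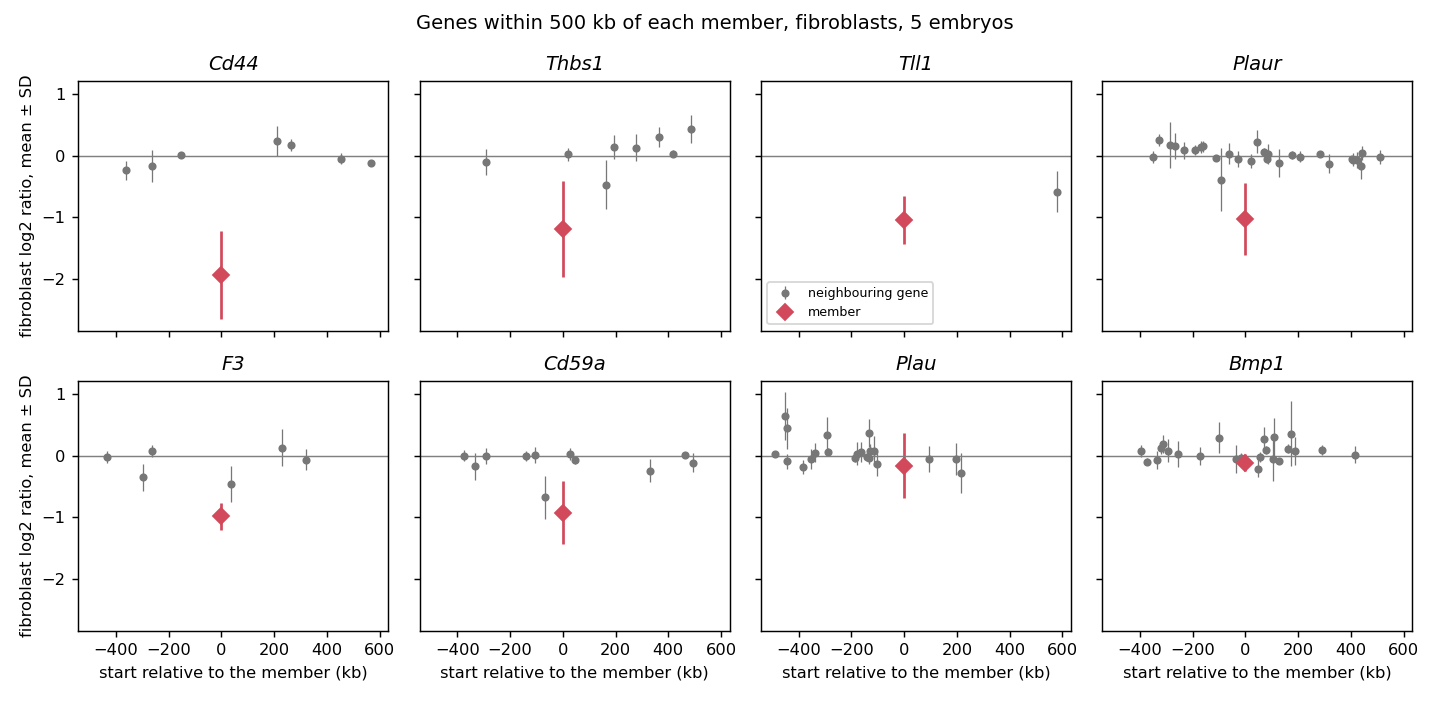
Fibroblast mean log2 ratio ± SD over 5 embryos (vertical axis, shared) of each member (red diamond) and of the genes within 500 kb (grey), against the distance between annotated starts in kb (horizontal axis). Cd44 at -1.95 stands among 7 neighbours between -0.23 and 0.24, whereas Cd59a and Tll1 each have 1 neighbour below -0.5.

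Other genes of the same systems were read in 8 lists of 20 to 36 measured genes. None of the list genes passed in fibroblasts or in thymus (limma, adjusted p under 0.05, against 0.00454% and 0.0228% of all features). List medians in fibroblasts lay between -0.05 and 0.03, beside a median of 0.00 over all features, and in thymus between -0.07 and 0.01, beside 0.01. In the difference between tissues, where 0.412% of all features passed, 4 list genes passed and are named with their lists below. All 4 lost that call when embryo 1, 2, 3 or 5 of both tissues was left out (limma adjusted p from 0.0735 to 0.289). In contrast to the members these genes were tested in fibroblasts, though the lists too were drawn up with results of these data known.

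Of 36 genes on hyaluronan and CD44, 21 had a fibroblast mean below the pool and 11 (30.6%) an unadjusted p under 0.05, where 16.1% of all features had one. Hyal2, a hyaluronan-degrading surface enzyme, was at -0.73 ± 0.57, below the pool in 5 of 5 embryos (limma adjusted p = 0.216). Its mean ran from -1.21 to -0.33 over the alternative settings. Mmp14, the membrane metalloprotease that can shed CD44, was at 0.69 ± 0.62, above in 5 of 5 (adjusted p = 0.252 by limma). Over the alternative settings the Mmp14 mean ran from 0.20 to 1.17, the latter on AYX and AYY arrays alone. The lowest of the list, picked out after its value was seen, was Msn, whose product moesin ties the CD44 tail to actin, at -0.91 ± 0.86 with embryo 5 at 0.25. Spp1, encoding the CD44 ligand osteopontin, was below the pool in 5 of 5 embryos of both tissues, at -0.46 ± 0.50 in fibroblasts and -0.38 ± 0.19 in thymus (SD, n = 5, limma adjusted p = 0.304 and 0.258). Srgn, the proteoglycan core serglycin, was at -0.31 ± 0.21 in thymus, below in 5 of 5 (SD, n = 5, limma adjusted p = 0.363).

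Of 22 genes on plasminogen activation, 2 (9.1%) had an unadjusted p under 0.05 in fibroblasts and 4 (18.2%) in thymus. Over all features these shares were 16.1% and 7.48%. In thymus Vtn, the matrix protein vitronectin that the urokinase receptor also binds, was at -0.55 ± 0.31, and Plg, plasminogen itself, at -0.42 ± 0.39, each below the pool in 5 of 5 embryos (SD, n = 5, limma adjusted p = 0.260 and 0.493). S100a10, part of a plasminogen-binding surface complex with annexin A2, was at -0.37 ± 0.09 in thymus (SD, n = 5, limma adjusted p = 0.0849) and 0.04 in fibroblasts. Its tissue difference of -0.41 passed (limma adjusted p = 0.0464). With embryo number as a block that adjusted p was 0.118.

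Of 26 coagulation genes, 4 (15.4%) had an unadjusted p under 0.05 in fibroblasts, against 16.1% of all features. Their fibroblast means ran only from -0.35 (Procr, the protein C receptor) to 0.21 (F8), beside F3 at -0.99. In thymus 7 (26.9%) had an unadjusted p under 0.05, against 7.48% of all features. The lowest there, picked out after its value was seen, was the fibrinogen gene Fgg at -1.56 ± 2.00, with embryos from -3.80 to 0.84 (SD, n = 5, limma adjusted p = 0.686). Of 20 genes on thrombospondins and their receptors, 3 (15.0%) had an unadjusted p under 0.05 in fibroblasts. Ccn2, a matricellular protein induced by TGF-beta, was at -0.71 ± 0.71, below in 5 of 5 and lowest in embryo 3 at -1.88 (SD, n = 5, limma adjusted p = 0.274). On Cy5 arrays alone Ccn2 was at -0.37 and on Cy3 arrays alone at -1.06. Its relative Ccn3 had the highest mean of that list, 0.76.

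Of 26 tolloid proteases and substrates, 2 (7.7%) had an unadjusted p under 0.05 in fibroblasts and 7 (26.9%) in thymus. The shares over all features were 16.1% and 7.48%. In this list Sfrp2, a secreted Wnt modulator that can enhance tolloid cleavage of procollagen, stood farthest from the pool. It was at 1.66, 2.25, 3.33, 1.18 and 1.28 in fibroblast embryos 1 to 5 and between -0.95 and -0.22 in thymus, so the tissues did not overlap. Its mean was 1.94 ± 0.88 in fibroblasts and -0.50 ± 0.34 in thymus (SD, n = 5, limma adjusted p = 0.130 and 0.338). The tissue difference of -2.44 passed (limma adjusted p = 0.0325), and with embryo number as a block the adjusted p was 0.0759. Col1a2 in thymus was at -0.37 ± 0.29, below in 5 of 5 (SD, n = 5, limma adjusted p = 0.431). Dcn, for the matrix proteoglycan decorin, was the second highest of the list in fibroblasts, with embryos from -0.37 to 4.63, highest in embryo 3.

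Of 22 complement regulators and relatives of CD59 and the urokinase receptor, 2 (9.1%) had an unadjusted p under 0.05 in fibroblasts and 8 (36.4%) in thymus. Over all features these shares were 16.1% and 7.48%. Psca, another small lipid-anchored protein of the fold, was at -0.75 ± 0.40 in fibroblasts, below in 5 of 5 (SD, n = 5, limma adjusted p = 0.151). The dye orientations differed for Psca, with -1.28 on Cy5 arrays alone and -0.21 on Cy3 arrays alone. Ly6d, a lymphoid surface protein of the family, was at -0.72 ± 0.27 in thymus, below in 5 of 5, and at -0.04 in fibroblasts (SD, n = 5, limma adjusted p in thymus = 0.0969). Its tissue difference of -0.68 passed (limma adjusted p = 0.0402), and with embryo number as a block the adjusted p was 0.0759. Cd59b, the second mouse CD59 gene, was not analysed here.

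Of 29 metalloproteases and inhibitors, 4 (13.8%) had an unadjusted p under 0.05 in fibroblasts, against 16.1% of all features. Mmp16, a membrane-anchored metalloprotease, was at -0.48 ± 0.16, below in 5 of 5 (SD, n = 5, limma adjusted p = 0.128), and it passed without array 4 of embryo 4 at -0.50 (limma adjusted p = 0.0407, in a setting where 0.378% of all features passed). Mmp3, stromelysin, had the highest mean of the list, 1.56 ± 1.80, with 4.26 in embryo 3 and -0.16 in embryo 5, picked out after its value was seen. Of 26 serum response and YAP targets, 5 (19.2%) had an unadjusted p under 0.05 in fibroblasts. Ptgs2, the inducible prostaglandin synthase, was at -0.62 ± 0.24 in fibroblasts, below in 5 of 5 (SD, n = 5, limma adjusted p = 0.130), and at 0.01 in thymus. Its tissue difference of 0.63 passed (limma adjusted p = 0.0407), with an adjusted p of 0.0793 when embryo number was a block. Without array 4 of embryo 4 Ptgs2 passed in fibroblasts alone, at -0.66 (limma adjusted p = 0.0395).

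**Figure D4:**
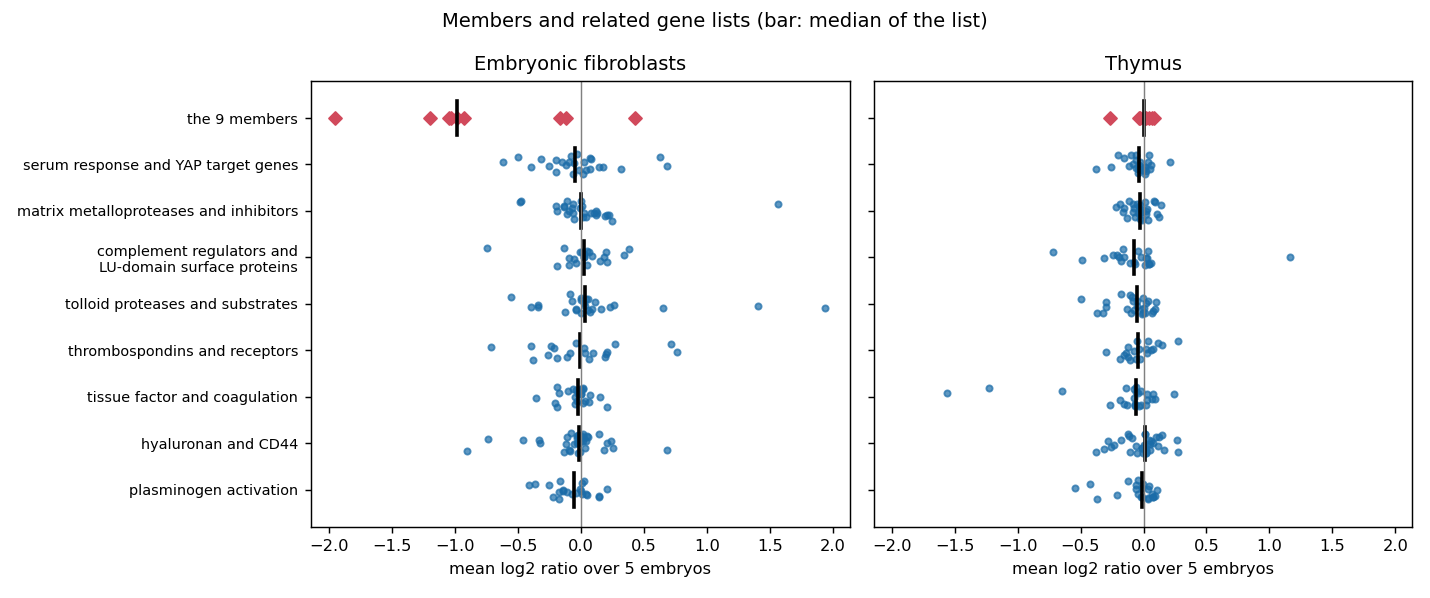
Mean log2 ratio of hypomorph over pool over 5 embryos (horizontal axis) for each measured gene of 8 related lists (blue points, scattered vertically for visibility) and for the 9 members (red diamonds), with a black bar at each median, in fibroblasts at left and thymus at right. The list medians lie between -0.07 and 0.03 in both tissues, and the members, chosen for low fibroblast values, reach -1.95 in fibroblasts only.

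Markers of cell types that the cultures could hold were read beside the members. For scale, 16.1% of all features in fibroblasts and 7.48% in thymus had an unadjusted p under 0.05 (limma). In fibroblasts 12 fibroblast markers had a median of 0.14, with 0 passing and 3 at an unadjusted p under 0.05 (limma), from Col1a1 at -0.56 to Dcn at 1.40, and embryo medians from -0.24 to 0.12. The median of 6 smooth muscle markers was -0.15, from Actg2 at -0.82 to Smtn at 0.17, and their embryo medians of -0.08, -0.30, -0.40, 0.00 and 0.09 were lowest in embryos 2 and 3, as Cd44, Plaur and Thbs1 were. None of these 6 passed, with 2 at an unadjusted p under 0.05 (limma), and their part in the values of Cd44 and the other low members was not tested. Medians of endothelial, myeloid, erythroid, thymocyte and thymic epithelial markers in fibroblasts were -0.03, 0.00, 0.03, 0.01 and 0.02. In thymus 11 thymocyte markers had a median of -0.10, from Dntt at -0.80 to Ptcra at 0.11, and 10 thymic epithelial markers a median of -0.04, with none passing (limma, 2 and 0 at an unadjusted p under 0.05). The thymocyte medians were -0.23, 0.18, -0.21, 0.08 and -0.23 in embryos 1 to 5, higher in embryos 2 and 4, the embryos in which Cd59a lay below the pool. In thymus 12 fibroblast markers had a median of -0.06, with 9 means below the pool, 0 passing and 5 at an unadjusted p under 0.05 (limma). Of these, 4 lay below the pool in all 5 embryos (Col1a2, Col3a1, Lum and S100a4), with S100a4 at -0.45 ± 0.14 (SD, n = 5, limma adjusted p = 0.0933). The part of these markers in the thymus values of Plau and Cd59a was not tested.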

How the data were processed

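The deposited values are log2 ratios of the channels, 1 for each of 25344 spots on 38 arrays. Per the labels' protocols amplified total RNA was labelled with Cy3 or Cy5 and read on an Agilent scanner, and per the design description 2 thymus arrays had been left out for quality. How spots were extracted or normalized is not stated in those texts. The log base was read from the values, since the bounds of ±16.61 equal log2 of 100000. The upper bound occurred only with the hypomorph in Cy5 and the lower only with it in Cy3, as on ratios with the same sample on top in both orientations. Which sample is on top cannot be read from this, because either order gives it, depending on the channel that lacks signal. The direction was taken as hypomorph over pool, and the sign of every ratio rests on that. Array medians ran from -0.888 to 1.14, so the values had not been centred.

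Values at a bound (1 to 50 per array) were set to missing, as were 147 to 423 spots without a value, and no member was affected. Each array was centred on its median. An embryo's value is the mean of its Cy5 and Cy3 means, and probes of a symbol were averaged, with symbols updated through RefSeq (3974 of 21111 named probes). Features needed a value in all 5 embryos. Tests used limma 3.58.1 in R 4.3.3 (lmFit and eBayes, two-sided, Benjamini-Hochberg over all features, 0.05), tested on simulated data. The members and lists were chosen with earlier results of these data known. All 9 members are named. From each list the rule takes genes that passed, or up to 3 per tissue with the largest mean among those with the same sign in 5 of 5 embryos, of which those with a mean beyond 0.3 are given, a limit set after the values were seen. Embryo numbers do not pair the tissues: deviations of embryos with the same number correlated from -0.04 to 0.09. Alternatives covered bounds, centring, scale, dye orientation, doubted arrays, title prefixes, labels, probes and leaving out each embryo.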

Additional observations from a re-analysis of the deposited data

Results flagged for a closer look

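In thymus, Bmp1 in embryo 5 lay apart from the other embryos at -0.21, with the nearest at -0.02 and the others up to 0.05. That embryo has 2 arrays, which read -0.48 with the hypomorph in Cy5 and 0.06 with it in Cy3. The lowest embryo was at -0.05 on probe 1 and -0.42 on probe 2. About 1 in 20 groups of this size is flagged by chance. Without embryo 5 the Bmp1 mean was 0.01.

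For 4 list genes the difference between the tissues, thymus minus fibroblasts, passed its own test over 10 embryos (limma). It was -0.41 for S100a10, -2.44 for Sfrp2, -0.68 for Ly6d and 0.63 for Ptgs2, with adjusted p of 0.0464, 0.0325, 0.0402 and 0.0407. The fibroblast embryos did not overlap the thymus embryos for Sfrp2. Tissue and age cannot be told apart in these differences, and the 3 fibroblast arrays that go against their labels enter all 4. Without those 3 arrays the differences were -0.46 for S100a10 (limma adjusted p = 0.142), -2.68 for Sfrp2 (0.0134), -0.67 for Ly6d (0.0445) and 0.74 for Ptgs2 (0.0175).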

How the results depend on the processing

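Of 128 alternative values of the members in fibroblasts, 125 moved by less than 1 SD, taken between the embryos of each gene. That SD is wide for some, at 0.52 for Has2 and 0.53 for Plau. The fall of Has2 to 0.02 and the turn of Plau to 0.13 on AYT arrays are thus among the 125. Features passing in fibroblasts (1) became 0 with bounds kept, 8 as deposited, 2 at equal spread, 6307 on Cy5 and 8144 on Cy3 arrays, 83 without array 4 of embryo 4, 7 without the 3 doubted arrays, 0 on AYT and 2687 on AYX and AYY arrays, and 0 to 38 with 1 embryo left out. Of these, the orientation counts keep the dye effect, and the cause of the others was not tested. Thymus (5) gave 1 as deposited, 13 at equal spread, 4880 on Cy5 and 5246 on Cy3 arrays, 9 with the genotype labelled, 19 without array 1 of embryo 1 (chosen after seeing the data) and 0 to 4 with 1 embryo left out. The difference (90) gave 17 as deposited, 0 on Cy5 and 285 on Cy3 arrays, 291 without array 4 of fibroblast embryo 4, 4 on AYT arrays and 0 to 121 with 1 embryo left out. With the embryo number as a replicate block 1 feature passed, and only embryo 4 correlated best with its own number.

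In thymus 1 member passed on Cy5 arrays (F3) and 3 on Cy3 arrays (Plau, F3 and Thbs1). Members near 0 in thymus turned sign: F3 to -0.0156 at equal spread, -0.274 on Cy5 arrays, -0.0231 with the genotype labelled and -0.0204 to 0.0259 with 1 embryo left out, Tll1 to -0.0125, -0.171, -0.0312 and -0.0434 to 0.0442 under the same settings, and Cd59a to 3.00e-04 as deposited, 0.208 on Cy5 arrays and -0.0886 to 0.0732 with 1 embryo left out. On Cy5 arrays Thbs1 was at -0.187, and on Cy3 arrays Plaur was at -0.0069, Bmp1 at 0.133 and Has2 at -0.0217. Bmp1 was at 0.0628 on 1 probe and -0.0558 to 0.0096 with 1 embryo left out. Of the list genes, Plg in thymus was at 0.170 on Cy3 arrays and Spp1 in fibroblasts at 0.0295 on AYX and AYY arrays. Cy5 and Cy3 arrays alone keep the dye effect, and the cause of the other turns was not tested. No intensities were used here, so signal over background is unknown.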
